A study of Mus musculus with 22 samples.

Results

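The nonsense_mediated_decay class of the transcript annotation holds transcripts whose reading frame ends at a stop codon far ahead of a later exon junction. Every transcript with that biotype in the deposited tables was taken, 7205 of 142552 transcripts, from 4598 of 55385 genes. Of these, 6613 were above 0 TPM (a length-corrected level relative to the library's total) in at least 1 library. Ribosome-bound mRNA had been immunoprecipitated through HA-tagged RPL22 from 6-week-old Rpl22 Fl/+ mice of both sexes, which all carried a Cre transgene that switches on the tag. The populations were dentate gyrus granule cells (Rbp4-Cre, hippocampus), layer V cortical neurons (Rbp4-Cre, cortex), cerebellar granule cells (Gabra6-Cre, cerebellum), hippocampal inhibitory interneurons (Dlx6a-Cre), and, from cortex, astrocytes marked by Aldh1-cre and microglia marked by Tmem119-cre. In the study's methods the astrocyte line is Aldh1l1-cre/ERT2 and the microglia line a Tmem119 cre/ERT2 allele, and mice of inducible lines received tamoxifen by gavage from 3 weeks of age. This treatment runs with glia against neurons, and the effects of tamoxifen and cell class cannot be told apart. Each had 3 biological replicates, and the interneuron replicates pooled mice. A cell type here is what its Cre line marks in the dissected region. With 1 library per replicate there were 18 libraries, and 4 replicates had a further library from a second sequencing batch.

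Nonsense-mediated decay is a surveillance pathway that degrades mRNAs on which a ribosome stops upstream of an exon junction complex, the protein mark that splicing leaves near each junction. UPF1 is its central helicase, UPF2 and UPF3 link it to the junction complex, and SMG proteins phosphorylate UPF1 and recruit or perform the cleavage. Many splicing factors are known to hold down their own level by splicing in an exon with a stop codon, and brain cells use alternative splicing heavily. The class is an annotation by structure, and the libraries measured the level of these transcripts on tagged ribosomes, not their decay.

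Total estimated counts ran from 38270477 to 71440915 per library, of which 658445 to 2014718 lay on the class. Every population had its own marker genes at their highest summed level. The interneuron libraries also held oligodendrocyte markers, all 6 of 6 detected at a summed 2855 to 3059 TPM, against 122 to 1212 TPM in the other libraries, and their part in the interneuron results was not tested. All microglia and interneuron libraries came from sequencing batch 2, and the others used here from batch 1, so that batch and cell type cannot be told apart without the repeated libraries. One repeated library, of layer V replicate 1, is labelled male but had Xist and no Y-linked transcripts, and it entered only the alternative settings.

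The annotated structure was read from GENCODE M21 (GRCm38), in which 7147 of the 7205 transcripts were found. The stop codon lay more than 50 nt ahead of the last exon junction in 7096 of 7134 transcripts with an annotated stop, at a median distance of 334 nt and with a median of 3 junctions after it. By comparison with the gene's protein-coding transcripts, 2321 transcripts differed in a splice site or an end, 2191 skipped an exon, 1422 had the stop codon in an exon of their own, 503 kept the normal stop codon and had an intron after it, 411 had an extra exon before or after the stop codon, and 192 retained an intron. The 31-base words from which kallisto assigns reads were found in no other transcript for a median of only 30 words per member, as many as a single exon junction gives. For 930 members no such word existed, and their level rests on the estimation step alone.

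The coding ends of 8 of these transcripts are shown because the shares of their genes are described in the results, and they stand for 3 of the 4 most frequent structures, with no exon-skipping transcript among them. Each runs from the start of the exon that holds the stop codon (for Atp2a2-203, the last 123 bases of the coding sequence) to the stop codon, which is in capitals, in the GRCm38 genome sequence of RefSeq.
Srsf9-205: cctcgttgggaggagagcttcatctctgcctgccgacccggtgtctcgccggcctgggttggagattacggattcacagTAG
Rbm39-223: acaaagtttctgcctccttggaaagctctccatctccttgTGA
Tnik-207: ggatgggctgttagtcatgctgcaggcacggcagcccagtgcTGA
Ipo11-206: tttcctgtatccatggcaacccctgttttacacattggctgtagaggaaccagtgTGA
Rps19-205: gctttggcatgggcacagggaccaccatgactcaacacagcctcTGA
Syncrip-203: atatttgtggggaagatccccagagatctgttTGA
Qk-202: gtatggctttcccaacgaaaggcTAA
Atp2a2-203: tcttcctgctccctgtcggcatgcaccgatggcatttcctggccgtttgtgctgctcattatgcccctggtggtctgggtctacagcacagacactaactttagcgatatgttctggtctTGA
In Srsf9-205 (exon 2 of 6, chr5:115328347-115328428 on the plus strand), Rbm39-223 (exon 4 of 18, chr2:156174126-156174168 on the minus strand), Tnik-207 (exon 8 of 32, chr3:28549541-28549585 on the plus strand), Ipo11-206 (exon 3 of 6, chr13:106836369-106836426 on the minus strand) and Rps19-205 (exon 4 of 7, chr7:24886107-24886153 on the plus strand) the exon itself is absent from the protein-coding transcripts. Syncrip-203 (exon 5 of 11, chr9:88476931-88476965 on the minus strand) uses another splice site or end and reads into the stop. Qk-202 (exon 7 of 8, chr17:10214169-10214194 on the minus strand) and Atp2a2-203 (exon 20 of 21, chr5:122457151-122457273 on the minus strand) keep a stop codon that a protein-coding transcript of the gene also uses, and an intron is removed downstream of it.

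Transcripts of the class made up about 2% of TPM in every population, lowest in astrocytes and highest in microglia. The share was 1.90%, 1.85% and 1.81% in the 3 astrocyte libraries, and 2.45%, 2.44% and 2.44% in the 3 microglia libraries. The neuronal libraries lay between them, at 1.93%, 2.14% and 2.18% in dentate gyrus granule cells, 2.02%, 2.01% and 2.07% in layer V neurons, 2.09%, 2.07% and 2.08% in cerebellar granule cells and 2.17%, 2.22% and 2.23% in interneurons. The means were 1.85% ± 0.0496 for astrocytes, 2.03% ± 0.0285 for layer V neurons, 2.08% ± 0.00855 for cerebellar granule cells, 2.08% ± 0.136 for dentate gyrus granule cells, 2.21% ± 0.0337 for interneurons and 2.44% ± 0.00244 for microglia (SD, n = 3 each). Microglia overlapped with no other population, and neither did astrocytes, whereas the dentate gyrus libraries overlapped in range with those of layer V, cerebellum and interneurons, which did not overlap with each other. This order depended on the measure. By estimated counts, cerebellar granule cells (1.62% to 1.66%) lay below astrocytes (1.68% to 1.72%), with microglia highest. Over TPM of protein-coding and class transcripts only, astrocytes (2.36% to 2.37%) stayed lowest and microglia (2.92% to 2.98%) highest. There layer V neurons (2.60% to 2.63%) overlapped with interneurons (2.58% to 2.64%) and exceeded cerebellar granule cells (2.45% to 2.53%). Transcripts of the retained_intron biotype also took a higher share in microglia, 4.47% to 4.95% against 2.42% to 3.04% in the other libraries, and their part in the class share was not tested. In bulk pull-downs, fewer cells of a type and less RNA per cell cannot be told apart. Glia (6 libraries) exceeded neurons (12 libraries) by 0.0468 percentage points, which was less than the spread (two-sided exact permutation test, p = 0.64, n = 6 and 12). Over the 6 cell type means, p was 0.80 in the exact permutation test, whose smallest possible value is 0.067. The test over libraries takes the 3 replicates of a population as separate units, which they are not for glia against neurons. The 4 replicates sequenced again differed between batches by −0.0360 to 0.0180 points.

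**Figure D1:**
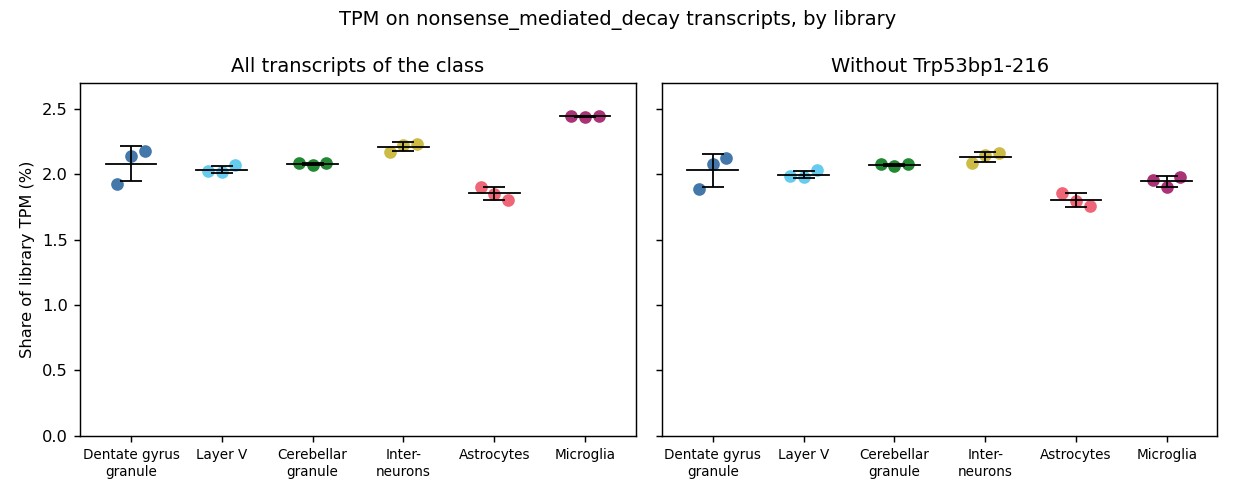
Share of library TPM (y axis, %) on transcripts of the nonsense_mediated_decay class in 18 libraries of 6 populations (x axis), with all 7205 transcripts on the left and without Trp53bp1-216 on the right. Points are libraries, long bars means and whiskers SD (n = 3); the microglia libraries, highest at 2.44% on the left, fall to a mean of 1.94% on the right.

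One transcript carried far more of the class in microglia than elsewhere. Trp53bp1-216 (GRCm38 chr2:121198251-121236006, minus strand), whose gene encodes a DNA double-strand break response protein, was at 4892, 5405 and 4654 TPM in the 3 microglia libraries. It was at 63.2, 56.2 and 62.1 TPM in cerebellar granule cells, 361, 386 and 388 TPM in neurons of layer V, 421, 575 and 587 TPM in dentate gyrus granule cells, 464, 567 and 501 TPM in astrocytes and 812, 783 and 732 TPM in interneurons. It carried 20.4% of the TPM of the class in microglia, and 0.291% in cerebellar granule cells. The whole gene moved with it, since the gene level was 9318 TPM in microglia and 194 TPM in cerebellar granule cells (edgeR log2 fold of microglia against the mean of the others 3.56 ± 0.07, SE, adjusted p = 7.25e-19). Estimated counts on the gene made up 2.41% ± 0.197 of the microglia libraries (SD, n = 3). Of its 31-base words, 329 also occur in Tubgcp4, and whether reads of another source enter this level was not tested. Without Trp53bp1-216, an alternative chosen after seeing the data, microglia were at 1.94% ± 0.0398 and glia lay below neurons by −0.184 points (exact permutation test, p = 0.00054, n = 6 and 12; over cell type means the exact p was 0.067, the smallest possible). The p over libraries again takes the replicates of a population as separate units, and it is given as a description. Without that transcript, the microglia mean lay below the neuron means of 2.00% (layer V) to 2.13% (interneurons). The microglia libraries then overlapped with those of layer V and dentate gyrus.

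Few transcripts carried most of the class. Of the 7205, 90 held 50% of its TPM, the 5 highest held 18.4% and the 10 highest 23.8%. Among the 10 highest by mean TPM were Ppia-201, Trp53bp1-216, Lars2-209, Eif4a2-210, Atp5pb-203, Atp2a2-203, Rpsa-206, Gpi1-207 and Prdx6-208. Ppia-201, from the gene of the peptidyl-prolyl isomerase cyclophilin A, was at 2481, 2525 and 2365 TPM in layer V neurons and at 1007, 883 and 883 TPM in microglia. Its share of the gene stayed between 55.4% in astrocytes and 67.9% in layer V neurons. Prdx6-208, of an antioxidant peroxiredoxin gene, was at 1035, 1111 and 1028 TPM in astrocytes and at 11.5, 12.2 and 11.9 TPM in cerebellar granule cells. The share of Prdx6 TPM on the class was nonetheless 45.7% in astrocytes and 46.3% in cerebellar granule cells, close to each other although the level differed. Lars2-209, of the mitochondrial leucyl-tRNA synthetase, held 73.0% of the gene's TPM in dentate gyrus granule cells and 83.5% in cerebellar granule cells, and its share did not pass the F test (adjusted p = 0.084). Eif4a2-210, of a translation initiation helicase, held 36.2% of the gene's TPM in dentate gyrus granule cells and 51.8% in layer V neurons, and has no 31-base word of its own. Ppia-201 and Rpsa-206 share 625 of 716 and 841 of 1071 words with other genes, several of them named as pseudogenes, and their levels are uncertain for that reason. At the other end, 663 transcripts were at 0 in all 18 libraries, and 1869 reached a mean of 1 TPM.

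Transcripts with the stop codon in an exon of their own carried 32.6% ± 1.498 of the TPM of the class in microglia, where Trp53bp1-216 belongs to them, and 13.8% ± 0.354 in layer V neurons. Without that transcript, an alternative chosen after seeing the data, they carried 15.3% ± 0.308 in microglia, 12.2% ± 0.326 in layer V neurons and 15.4% ± 0.151 in cerebellar granule cells, the last overlapping with microglia. Those with an intron after the normal stop codon carried 10.8% ± 0.0441 in cerebellar granule cells, 10.5% ± 0.0611 in neurons of layer V, 7.15% ± 0.106 in astrocytes and 5.66% ± 0.241 in microglia (SD, n = 3), with no overlap between neurons and glia. Without Trp53bp1-216, they carried 7.11% ± 0.278 in microglia, which overlapped with 7.35% ± 0.0846 in astrocytes, and both stayed below the neurons. Transcripts that retain an intron carried 2.07% ± 0.101 in microglia and 0.849% ± 0.0316 in layer V neurons.

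The share of a gene's TPM on the class was then followed in genes with a mean of at least 10 TPM in all 6 populations. Of 6003 such genes, 1916 have a member of the class, 1914 have another transcript too and 1878 had a member above 0 TPM. Pooled over these 1878 genes, the class took 12.7% ± 0.0858 of TPM in microglia, 9.65% ± 0.114 in astrocytes, 9.31% ± 0.0589 in layer V neurons, 9.22% ± 0.0731 in interneurons, 8.91% ± 0.204 in dentate gyrus granule cells and 8.75% ± 0.117 in cerebellar granule cells (SD, n = 3). Without Trp53bp1, microglia were at 10.2% ± 0.248 and astrocytes at 9.40% ± 0.0865. Mean TPM of the class was at least 0.5 in 1310 genes, which were tested, while 568 were too low. A gene can pass that limit through a population where its share is high, so the counts below describe the 1310 tested genes only. Their median share was 6.17%. In 72 genes the class held 50% or more of the gene's TPM, and in 572 under 5%.

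In limma's F test across the 6 populations, 1001 of 1310 genes differed in share (76.4% called). Among transcripts of every biotype in expressed genes, 83.3% were called (20333 of 24398), and 74.8% among nonsense_mediated_decay transcripts taken singly (1276 of 1706). Each population was also set against the mean of the other 5. Microglia differed in 755 genes (57.6%), with a higher share in 483 (36.9%) and a lower in 272 (20.8%). Astrocytes differed in 470 (35.9%), 323 higher (24.7%) and 147 lower (11.2%). Fewer genes had a higher than a lower share in cerebellar granule cells (588 genes, 44.9%, with 233 or 17.8% higher and 355 or 27.1% lower), layer V neurons (557 genes, 42.5%, with 211 or 16.1% higher and 346 or 26.4% lower), dentate gyrus granule cells (343 genes, 26.2%, with 143 or 10.9% and 200 or 15.3%) and interneurons (337 genes, 25.7%, with 150 or 11.5% and 187 or 14.3%). In glia against neurons, 743 genes differed (56.7%), 493 higher (37.6%) and 250 lower (19.1%). These contrasts were not run over transcripts of every biotype. Whether their counts and balance are particular to the class was therefore not tested. Of the 1001 genes, microglia had the highest mean share in 350 and layer V neurons the lowest in 273. With the count-based edgeR test in place of limma, 881 genes were called, 848 of them by both, and the interneuron count fell to 200. The balance for interneurons turned in that test (108 higher and 92 lower), at a class TPM of at least 2 (126 and 113) and with a pseudocount of 0.1 (129 and 128). For dentate gyrus granule cells it turned within batch 2 (13 and 11). Fitting all 22 libraries with sequencing batch as a term gave 706 genes for microglia and 280 for interneurons.

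**Figure D2:**
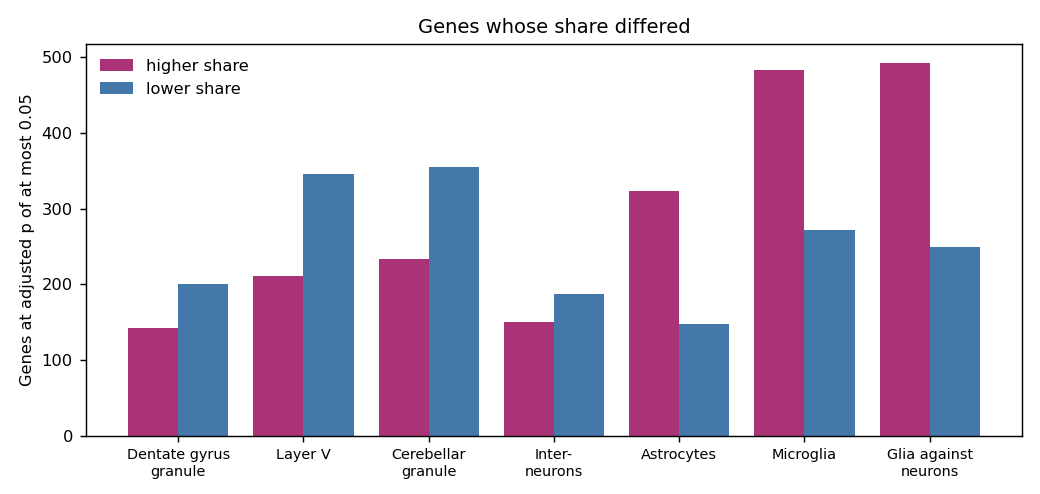
Number of genes (y axis), of 1310 tested, whose share of TPM on the nonsense_mediated_decay class was higher or lower in each population than in the mean of the other 5, or in glia than in neurons (x axis), at a limma adjusted p of at most 0.05. Higher shares outnumber lower ones in astrocytes (323 and 147), microglia (483 and 272) and glia against neurons (493 and 250), and not in the 4 neuron types, although for interneurons the order turned in the edgeR test (108 and 92) and for dentate gyrus granule cells within batch 2 (13 and 11). The same contrasts were not run over other biotypes.

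In the 20 genes with the widest range of mean share, the ranges ran from 40.9 percentage points (Syncrip) to 68.3 (Ipo11). These genes were chosen for that range, so it is given as a description. In 13 of them a glial population was the highest, and in the other 7 a neuronal one. Over all 1001 genes called, microglia were the highest in 350 and astrocytes in 167.

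**Figure D3:**
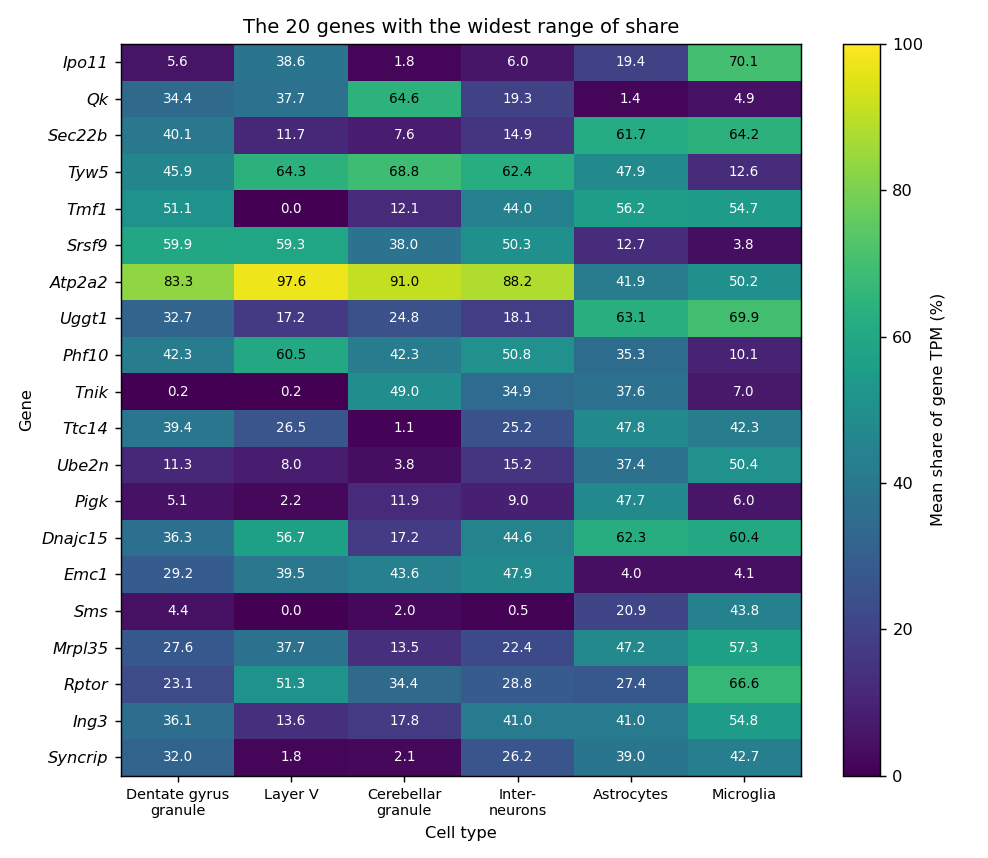
Mean share of gene TPM on the nonsense_mediated_decay class (colour and number, %) of the 20 genes with the widest range (rows) in 6 populations (columns, n = 3 libraries each). Atp2a2, Srsf9, Emc1 and Qk are higher in every neuron type than in both glial types, Sec22b, Uggt1 and Ube2n the reverse, and Ipo11 is highest in microglia at 70.1%.

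A first group of genes had the class high in neurons and low in glia. Atp2a2 encodes the SERCA2 calcium pump of the ER. Its share was 97.6%, 97.5% and 97.7% in layer V libraries, 90.9%, 90.7% and 91.2% in cerebellar granule cells, 87.2%, 88.9% and 88.4% in interneurons and 83.8%, 81.3% and 84.8% in dentate gyrus granule cells, against 40.2%, 49.5% and 35.9% in astrocytes and 49.4%, 51.2% and 50.0% in microglia. Neuronal and glial libraries did not overlap, and the log2 odds of class against other TPM differed between glia and neurons by -3.67 ± 0.09 (SE, adjusted p = 3.13e-14). Srsf9 encodes a serine- and arginine-rich splicing factor. Its share was 62.1%, 58.0% and 59.6% in dentate gyrus granule cells, 60.7%, 57.5% and 59.6% in layer V neurons, 50.1%, 47.7% and 53.0% in interneurons and 34.8%, 42.8% and 36.4% in cerebellar granule cells, and only 12.1%, 14.5% and 11.6% in astrocytes and 3.15%, 3.82% and 4.54% in microglia. The glia to neuron difference in log2 odds was -3.76 ± 0.10 (SE, adjusted p = 3.74e-14), again without overlap. Qk encodes the RNA-binding protein quaking, which regulates splicing in glia. The class held 63.2%, 65.0% and 65.6% of its TPM in cerebellar granule cells, but 1.30%, 1.12% and 1.74% in astrocytes and 5.03%, 4.41% and 5.15% in microglia. Dentate gyrus granule cells (34.4%), layer V neurons (37.7%) and interneurons (19.3%) lay between, the first pair overlapping. Emc1, of the ER membrane complex, had 47.9% ± 2.38 in interneurons and 3.99% ± 2.22 in astrocytes (SD, n = 3).

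**Figure D4:**
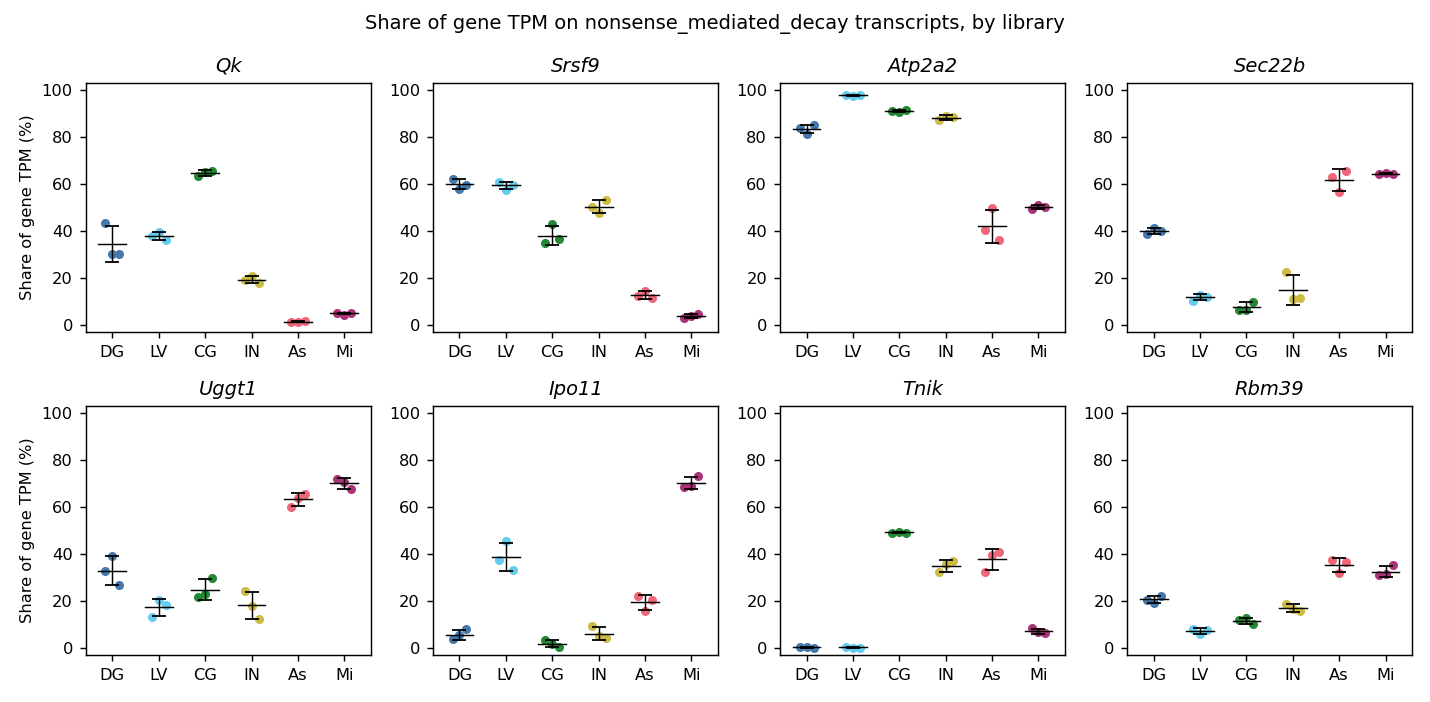
Share of gene TPM on the nonsense_mediated_decay class (y axis, %) for 8 genes in dentate gyrus granule cells (DG), layer V neurons (LV), cerebellar granule cells (CG), interneurons (IN), astrocytes (As) and microglia (Mi). Points are libraries, long bars means and whiskers SD (n = 3); glia lie below all neurons for Qk, Srsf9 and Atp2a2 and above them for Sec22b, Uggt1 and Rbm39.

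A share can differ because either class of transcript differs in level, and the TPM of both classes showed that genes varied in this respect. For Qk, the class was at 5.16 TPM in astrocytes and 12.0 TPM in cerebellar granule cells, while the other transcripts were at 370 and 6.61 TPM. For Srsf9, the other transcripts were at 249 TPM in microglia and 26.6 TPM in dentate gyrus granule cells, and the class at 9.92 and 39.7 TPM, so that both moved in opposite directions. For Atp2a2, the class was at 474 TPM in cerebellar granule cells and 44.5 TPM in microglia, and the other transcripts at 47.1 and 44.2 TPM. For Trp53bp1, the classes rose and fell together, though not in equal measure. Its share ranged over 22.2 points, highest in microglia and lowest in cerebellar granule cells (limma F test, adjusted p = 1.91e-08).

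**Figure D5:**
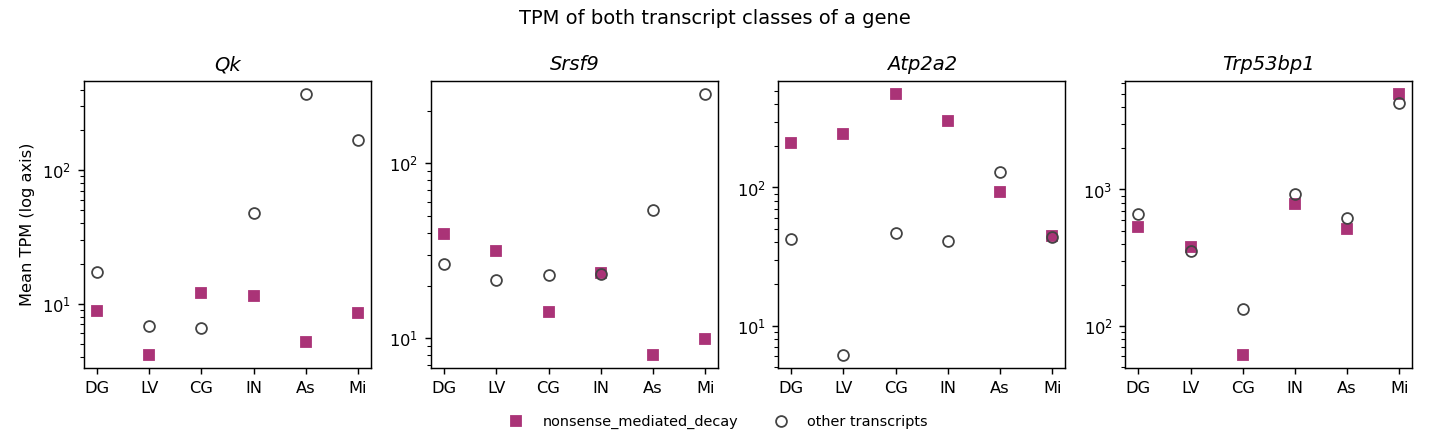
Mean TPM (y axis, log scale, n = 3 libraries) of transcripts in the nonsense_mediated_decay class (squares) and of the gene's other transcripts (circles) for 4 genes in the 6 populations, abbreviated DG, LV, CG, IN, As and Mi for dentate gyrus granule cells, layer V neurons, cerebellar granule cells, interneurons, astrocytes and microglia. In Qk the circles span a wide range while the squares stay between 4.12 and 12.0 TPM, and in Trp53bp1 both symbols move together.

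A second group had the class high in glia. Sec22b encodes a vesicle SNARE between ER and Golgi. Its share was 64.2%, 64.4% and 64.0% in microglia and 62.9%, 56.6% and 65.5% in astrocytes, 38.8%, 41.2% and 40.1% in dentate gyrus granule cells, and 6.44%, 6.56% and 9.86% in cerebellar granule cells. Layer V neurons (11.7%) and interneurons (14.9%) lay between these neuronal values, and glia exceeded neurons by a log2 odds of 3.13 ± 0.16 (SE, adjusted p = 1.07e-10). Uggt1, the sensor of unfolded glycoproteins in the ER, had 71.8%, 70.5% and 67.3% in microglia, 59.9%, 63.8% and 65.5% in astrocytes and 13.0%, 20.3% and 18.1% in layer V neurons. The other neuron means were 32.7%, 24.8% and 18.1% for dentate gyrus, cerebellum and interneurons, and the glia to neuron difference was 2.61 ± 0.15 (SE, adjusted p = 5.62e-10). Ube2n, a ubiquitin-conjugating enzyme, had 50.4% ± 6.66 in microglia, 37.4% ± 1.10 in astrocytes and 3.83% ± 0.508 in cerebellar granule cells. It shares words with pseudogenes (326 of 1073). Sms, spermine synthase, had 43.8% ± 7.27 in microglia and 20.9% ± 1.11 in astrocytes, while its 3 layer V libraries had a share of 0, and 928 of its transcript's 1510 words also lie in other genes.

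Other genes were set apart by 1 population. Ipo11, a nuclear import receptor, had 68.2%, 69.0% and 73.1% on the class in microglia, 37.5%, 45.2% and 33.1% in layer V neurons and 3.36%, 1.48% and 0.435% in cerebellar granule cells, and microglia exceeded the mean of the others by a log2 odds of 4.10 ± 0.24 (SE, adjusted p = 1.02e-09). Ipo11-206 has no 31-base word of its own, and the same holds for the highest class member of Tyw5, Atl2, Clk1, Rbm39 and Ptbp2, whose values follow. Some words of 3 of these transcripts also lie in other genes, 213 for Ipo11-206, 261 for Tyw5-201 and 104 for Rbm39-223. Microglia were also the highest in Rptor, which encodes the raptor subunit of mTORC1, at 66.6% ± 0.373 against 51.3% ± 4.81 in layer V neurons, the next in order. They were the lowest in Tyw5, a tRNA-modifying hydroxylase (12.6% ± 2.62, log2 odds -2.98 ± 0.16 SE, adjusted p = 4.83e-10), and in Phf10, a subunit of the BAF chromatin remodeller (10.1% ± 0.414). Astrocytes stood out in Pigk, of the GPI transamidase, with 47.6%, 50.7% and 44.7% against 10.3%, 11.5% and 14.0% in cerebellar granule cells, the next highest (log2 odds 3.73 ± 0.45 SE, adjusted p = 9.85e-06).

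Layer V neurons had no estimated TPM on the class in any of 3 libraries for Tmf1, a Golgi protein, where astrocytes had 56.5%, 56.1% and 55.8% and cerebellar granule cells 3.06%, 11.3% and 21.8%, a wide spread. The log2 odds in layer V against the others was -4.69 ± 0.32 (SE, adjusted p = 9.66e-09), a value that depends on the pseudocount since the class is listed at 0. Layer V neurons had 30.9%, 28.7% and 29.9% for the importin gene Ipo7, while cerebellar granule cells, dentate gyrus granule cells and interneurons were listed at 0. For Tnik, a kinase of the Wnt pathway, dentate gyrus (0.203%) and layer V libraries (0.174%), both marked by Rbp4-Cre, were near 0, and cerebellar granule cells had 49.0%, 49.4% and 48.7%. Interneurons (34.9%) and astrocytes (37.6%) lay below the cerebellar value and overlapped. Cerebellar granule cells were lowest in Dnajc15, a mitochondrial co-chaperone (17.2% ± 3.46, log2 odds -2.22 ± 0.15 SE, adjusted p = 2.84e-08), and in Ttc14 (1.09% ± 1.88). Mrpl35, of the mitochondrial ribosome, ranged from 13.5% to 57.3% in its population means, and Ing3, a chromatin reader, from 13.6% to 54.8%. Dentate gyrus granule cells had 31.5%, 28.4% and 32.2% for Tram1, of the ER translocon, against 8.20% in layer V neurons, and less than the others for Brpf3 (15.0% ± 4.15). Interneurons had the highest mean for Atl2, an ER-shaping GTPase (55.9% ± 2.47), close to 53.9% ± 1.94 in cerebellar granule cells, which it overlapped.

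Of 29 SR and SR-like factors, 27 have a member of the class and 25 were tested, of which 21 differed (84.0%, beside 76.4% over all). In glia against neurons the share was higher in 12 and lower in 3 (over all, 37.6% higher and 19.1% lower), with a median log2 odds of 0.44 beside 0.22 over all tested genes. Rbm39, a splicing coactivator, had 37.2%, 31.8% and 36.4% in astrocytes, 30.8%, 31.2% and 35.0% in microglia and 8.20%, 5.77% and 7.47% in layer V neurons, with a glia to neuron difference of 1.73 ± 0.10 (SE, adjusted p = 8.15e-10). Srsf6 had 41.5%, 39.3% and 44.2% in microglia and 7.47%, 6.78% and 6.92% in layer V neurons (difference of microglia from the others 1.77 ± 0.17 SE, adjusted p = 3.50e-07). Clk1, a kinase of SR proteins, went the other way, at 40.1% ± 7.49 in dentate gyrus granule cells and 7.20% ± 1.26 in microglia (glia to neuron difference -0.78 ± 0.18 SE, adjusted p = 0.0018). Srsf9 did so too, as described.

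Of 52 hnRNP and other RNA-binding regulators, 25 have a member and 22 were tested, of which 21 differed (95.5%, beside 76.4% over all). The share was higher in glia in 13 and lower in 3 (over all, 37.6% and 19.1%), and the median log2 odds was 0.88 beside 0.22. Syncrip, which encodes hnRNP Q, had 44.5%, 42.6% and 41.0% in microglia and 1.85%, 0% and 3.46% in layer V neurons. Of the 1895 words of Syncrip-203, 898 also lie in other genes, and its level is uncertain for that reason. Ptbp2, the neuronal polypyrimidine tract binding protein, had 40.0%, 48.3% and 50.2% in microglia and 16.98%, 16.7% and 17.1% in layer V neurons. Hnrnpa1 had 22.4% ± 2.56 in microglia and 5.22% ± 0.810 in interneurons, but 933 of its transcript's 1253 words also lie in other genes. Qk, of the same list, was low in glia. The genes of these lists differed in level as well, and Ptbp2 was at 19.5 TPM in microglia and 130 TPM in cerebellar granule cells.

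Of 40 pre- and postsynaptic genes, 7 have a member of the class and 6 were tested. All 6 differed between populations, and in glia against neurons 5 were higher and 1 did not pass the test (over all tested genes, 76.4% differed, 37.6% were higher and 19.1% lower). Gria2, an AMPA receptor subunit, had 18.4%, 13.5% and 16.6% in astrocytes and 0.610%, 0.689% and 0.533% in layer V neurons. Camk2g had 12.9% ± 0.793 in microglia and 0.558% ± 0.0771 in layer V neurons. Shank3, a postsynaptic scaffold, was highest in cerebellar granule cells (13.6% ± 1.43). Whether RNA of neurons in the glial pull-downs enters these shares was not tested. The 40 genes also differed in level, with 3 higher and 37 lower in glia than in neurons by edgeR (all genes, 46.8% and 36.4%). Their median log2 fold was -1.87 beside 0.18 over all genes. What part this level difference and the pseudocount have in the shares was not tested. Of 92 cytosolic ribosomal protein genes, 13 were tested and 6 differed (46.2%, beside 76.4% over all), with 1 higher and 4 lower in glia (over all, 37.6% and 19.1%). Rps19 had 30.6%, 28.2% and 31.03% in cerebellar granule cells and 16.4%, 9.35% and 14.3% in microglia. Of the 563 words of Rps19-205, 323 also lie in other genes, several of them named as pseudogenes, so that these shares are uncertain.

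The factors of the pathway were themselves measured as gene levels with edgeR. All 22 listed factors passed the filter, and 17 were higher in cerebellar granule cells than in the mean of the others, while 5 did not pass the test. Over all 20524 genes, 36% were higher there and 46.1% lower. The factors had a median log2 fold of 0.46 beside −0.27 over all genes. This was not particular to them, since 22 of 29 SR and SR-like factors were higher there and 2 lower (median 0.45). Of 52 hnRNP and other RNA-binding regulators, 45 were higher and 4 lower (0.88). Synaptic genes had 25 higher and 11 lower, and ribosomal protein genes 3 and 81. In microglia 11 of the decay factors were higher and 7 lower (all genes, 43.4% and 37.6%), and in glia against neurons 8 were higher and 12 lower (46.8% and 36.4%). Upf1 was at 92.5 ± 1.70 TPM in cerebellar granule cells, 62.5 ± 1.89 in granule cells of the dentate gyrus, 56.2 ± 1.01 in microglia and 25.2 ± 0.337 in astrocytes (SD, n = 3). Smg1, the kinase of UPF1, was at 35.6 ± 1.27 TPM in cerebellar granule cells and 4.00 ± 0.193 in neurons of layer V. Upf2 (log2 fold -0.89 ± 0.03) and Upf3b (-1.17 ± 0.03) were lower in glia than in neurons, as was the release factor gene Gspt2 (-1.94 ± 0.04, SE, all at adjusted p under the limit of 0.05). Dhx34 (1.37 ± 0.05), which acts with UPF1, and Pabpc1 (0.76 ± 0.04), the cytoplasmic poly(A)-binding protein, were higher. Pabpc1 was at 399 ± 17.7 TPM in microglia but at 131 ± 14.3 in astrocytes, below 193 ± 15.7 in dentate gyrus granule cells. Of the 10 exon junction complex genes, 9 were higher in cerebellar granule cells and 1 did not pass the test. Eif4a3, which anchors the complex, was at 116 ± 5.47 TPM there, 128 ± 0.904 in microglia and 59.1 ± 3.02 in layer V neurons. Among the 22 factors, 5 have a member of the class and 2 were tested. Smg6, the endonuclease, had 35.2%, 25.0% and 32.3% in layer V neurons and 17.8%, 4.29% and 3.10% in cerebellar granule cells, whereas Smg5 did not pass the F test (adjusted p = 0.14).

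The limit of 10 TPM decided which genes entered. Just inside it were Tram1, Usp3 and Coq4, at 10.03 to 10.07 TPM in their lowest population, with a share of up to 30.7%, 50.7% and 9.84%. Just outside were C030006K11Rik, Trub2 and Ahctf1, at 9.983 to 9.996 TPM, with up to 4.49%, 60.2% and 23.7%.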

How the data were processed

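The tables hold transcript values of ribosome-bound mRNA (RiboTag) from libraries of poly(A) RNA. After trimming with cutadapt 3.5, the authors ran kallisto 0.46.2 on GENCODE M24 and deposited estimated counts and TPM per transcript. kallisto splits reads shared by transcripts, so that levels of transcripts with few words of their own carry an error which the spread between replicates shows only in part. Batch 1 libraries were used where a replicate was also sequenced in batch 2 (18 of 22 libraries). The class share of a gene was tested with limma 3.58.1 on log2((class TPM + 0.5)/(other TPM + 0.5)), with trended variance, 3 replicates per population and Benjamini-Hochberg adjustment over 1310 genes at 0.05. Gene sums of the deposited estimated counts, rounded, were tested with edgeR 4.0.16 (TMM, quasi-likelihood); DESeq2 1.42.0 was an alternative. A library share has an exact permutation test. Named are the 10 highest transcripts, the 20 genes of widest range, the 2 most positive and negative genes per contrast, and up to 4 genes per list. A few items that this rule names are not reported here. Members, lists and rules were chosen with earlier results of these data known. Tested on simulated data, limma's F test recovered 68 of 200 genes changed by a log2 odds of 1 (1 false call), and 186 of 200 at 2 (9 false calls). The simulation drew independent normal noise for each gene and placed the change in microglia only. It held no error from splitting shared reads, so its false calls do not measure those in these data. No value here measures a decay rate.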

Additional observations from a re-analysis of the deposited data

How the results depend on the processing

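The sign of the glia to neuron difference in library share (0.0468 points) turned without the 5 highest transcripts (−0.0888, exact permutation p = 0.11, n = 6 and 12), without Trp53bp1-216 (−0.184) and without any one of the 3 microglia replicates; over all left-out replicates it ran from −0.0127 to 0.115. Over cell type means it was 0.0461 to 0.0473 without a microglia replicate. As a share of estimated counts it passed the threshold (0.481 points, exact permutation p = 0.022, n = 6 and 12), but not over cell type means (exact p = 0.27), with microglia at 2.87% and astrocytes at 1.70%, below the neuron mean of 1.80%. Counts of genes called moved by over 1.5 times under these settings. Without the filter on class TPM (1878 tested) they were 525 for dentate gyrus granule cells, 906 for cerebellar granule cells, 538 for interneurons, 797 for astrocytes and 1124 for glia against neurons. Within batch 2, with 1 library for each of 4 populations, which are assumed to vary like the others, they were 24 for dentate gyrus granule cells, 194 for layer V neurons, 233 for cerebellar granule cells, 198 for interneurons and 144 for astrocytes. At a gene TPM of at least 20 (865 tested) they were 390 for cerebellar granule cells, 503 for microglia and 488 for glia, and at a class TPM of at least 2 (822 tested) they were 495 for microglia, 477 for glia and 724 transcripts. Interneurons had 200 by edgeR on counts and 208 to 345 with a replicate left out, lowest without interneuron replicate 2. The filters changed the number tested more than the share called, which for microglia was 57.6% as reported and 58.2% at a gene TPM of at least 20, and for dentate gyrus granule cells 26.2% and, without the filter, 28%; elsewhere the cause was not tested. Deviations of replicates with the same number were correlated at −0.0949 to 0.149 over pairs of populations, with a median of 0.0042 (0.0039 for different numbers). Whether dentate gyrus and layer V libraries, both from Rbp4-Cre, came from the same mice was not tested. With the replicate number as a block, the any-population count was 984 (1001 without), the share difference 0.0468, and the decay factors called 20. Of 1870 values recomputed for 62 named gene results, 1844 kept their direction and call, 23 lost the call and 3 turned, all when only protein-coding transcripts formed the rest of the gene (Ppia in layer V, −0.85, Lars2 in cerebellar granule cells, −0.68, and Prdx6 in layer V, −0.022, log2 odds). Batch 1 holds no microglia or interneurons, so those contrasts could not be fitted there.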
